A study of Mus musculus with 6 samples.

Results

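The 10 genes described here belong to the ATF4 response and to the serine synthesis route that it induces: *Atf4*, *Atf5*, *Ddit3*, *Trib3*, *Chac1*, *Sesn2*, *Asns*, *Phgdh*, *Psat1* and *Psph*. They were taken by name from a table of read counts for 55487 gene identifiers, of which 19015 passed the filter on low counts and were tested. All 10 genes passed it. *Ddit3* has a second identifier with at most 2 reads in a library, which did not pass. Polyadenylated RNA was sequenced from CD31-selected primary skin cells of C57BL/6 mice that had been kept for 48 hours in normal (5 mmol/L) or high (20 mmol/L) glucose, with 3 samples in each group. The labels give 4 to 6 mice aged 2 to 3 months for an isolation and list no other allele or agent in either group. The study counts the replicates of its sequencing as mice, while the isolation described in the labels uses several mice together, and no label ties a sample to an animal or an isolation. The p-values measure the spread between these samples, and part of it may be technical.

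The libraries held between 120192466 and 146881356 counts. The labelled cell type was checked against 10 endothelial markers. *Pecam1*, which encodes CD31, had 9 to 19 reads in a library, and the summed level of the 10 markers was 9.152 to 9.503 CPM (read counts scaled to one common, TMM-normalized library size) in normal and 9.423 to 9.650 in high glucose. The endothelial markers *Tie1*, *Cldn5* and *Emcn* had at most 9 reads in a library. *Kdr*, a receptor for VEGF, made up most of the sum, with 576 to 777 reads in a library and means of 4.96 CPM in normal and 5.499 CPM in high glucose. Within the list *Cdh5* fell (log2 fold change -1.03, edgeR adjusted p = 0.000139), and *Tek* (0.66, adjusted p = 0.00219) and *Erg* (1.45, adjusted p = 0.0453) rose. The summed level of 11 fibroblast markers was 38647 to 41854 CPM in normal and 70480 to 75444 CPM in high glucose. The data thus go against the label, and the samples are called skin cultures here. As these are bulk samples, fewer cells of a type and less RNA per cell cannot be told apart.

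ATF4 is a transcription factor whose protein is made when the initiation factor eIF2α is phosphorylated, as happens when amino acids run short or proteins misfold in the endoplasmic reticulum. The mRNA of *Atf4* can therefore stay level while its protein changes, and its activity is usually read from its target genes. Those targets make amino acids, charge tRNAs, import nutrients and, through *Ddit3* and *Trib3*, turn the response toward cell death or shut it down. Serine is made from a glycolytic intermediate in a short route of 3 enzymes, PHGDH, PSAT1 and PSPH, and its carbon goes on to glycine and the folate cycle.

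High glucose cultures had less *Phgdh*, *Psat1*, *Chac1*, *Sesn2* and *Asns* mRNA than normal glucose cultures, and none of the 10 genes was called higher. *Phgdh* fell 2.08-fold, *Psat1* 1.77-fold and *Chac1* 1.70-fold, whereas *Sesn2* fell by 16.2% and *Asns* fell by 15.2%. *Atf4*, *Atf5*, *Ddit3*, *Trib3* and *Psph* did not pass the threshold of 0.05 for the adjusted p of edgeR's quasi-likelihood test. Of all tested genes, 14.5% were called lower and 16.9% were called higher, so that 5 of 10 members called lower and 0 called higher stand beside these shares. The values of the groups did not overlap and lay lower in high glucose for 8 of the 10 genes, and lay higher for 0 of them. Over all tested genes these shares were 21.3% and 25.1%. The median log2 fold change (high minus normal glucose) of the 10 genes was -0.21, against 0.0062 over all tested genes, and the median size of change was 0.21 against 0.20. Without normal glucose replicate 2, 8 of the 10 genes were called lower. Scaling to library size alone, which moved the median of all tested genes to -0.11, called 9 of the 10 lower and left *Trib3* uncalled.

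**Figure D1:**
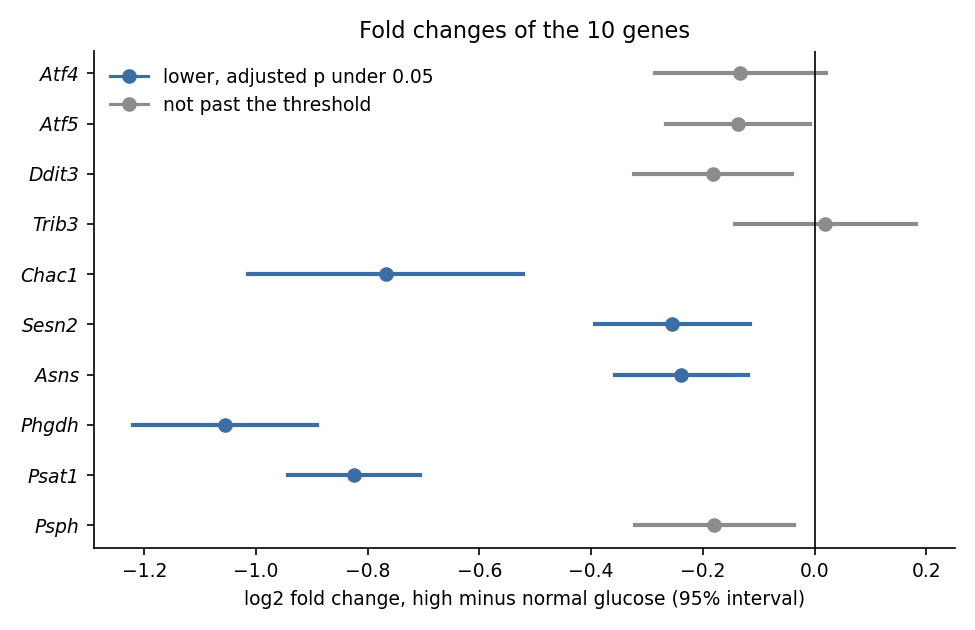
Log2 fold change (high minus normal glucose) of each of the 10 genes with its 95% interval from the edgeR fit, in blue where the adjusted p was under 0.05 and in grey otherwise. The points of *Phgdh*, *Psat1* and *Chac1* lie at -1.06, -0.82 and -0.77, those of *Sesn2* and *Asns* at -0.25 and -0.24, and *Trib3* alone lies above 0, on the other side of which it falls under library size scaling.

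*Atf4* (chr15:80255184-80257541, plus strand, GRCm38) was measured at 255, 213 and 223 CPM in normal glucose and at 205, 216 and 210.2 CPM in high glucose. The groups overlapped, since normal glucose replicate 2 lay below high glucose replicate 2. The mean was 230.5 ± 21.9 CPM in normal and 210.2 ± 5.63 CPM in high glucose (SD, n = 3), and the log2 fold change was -0.13 ± 0.07 (SE, adjusted p = 0.170). Its 95% interval ran from -0.29 to 0.02.

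*Atf5* (chr7:44812256-44816658, minus strand), a related factor that is also controlled through eIF2α, was measured at 422, 375 and 419 CPM in normal and at 371, 361 and 374 CPM in high glucose. The groups did not overlap, but the gap between normal glucose replicate 2 and high glucose replicate 3 was small beside the spread of the normal glucose samples. Its log2 fold change was -0.14 ± 0.06 (SE, adjusted p = 0.0976). In each library *Atf5* had more reads than *Atf4*, at 1.65, 1.76 and 1.88 reads per *Atf4* read in normal and 1.81, 1.67 and 1.78 in high glucose. This ratio overlapped between the groups (exact permutation test, two-sided, p = 1). The exons of *Atf5* share 82 bases with *Nup62* and *Il4i1* on the other strand, and whether counting used strand is not given in the sources used here. For *Nup62* the log2 fold change was 0.07 (adjusted p = 0.432).

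*Ddit3* (chr10:127290774-127296288, plus strand) encodes CHOP, the factor that links prolonged stress to cell death. Its level was 30.5, 26.4 and 30.1 CPM in normal and at 25.4, 25.2 and 25.9 CPM in high glucose. The groups did not overlap, with normal glucose replicate 2 closest to the high glucose samples. The log2 fold change was -0.18 ± 0.06 (SE), and the adjusted p of 0.0530 missed the threshold. With a trend with GC content and gene length removed and the replicate number fitted as a block, its log2 fold change was -0.05. The largest edgeR adjusted p of *Ddit3* over the 19 alternative settings was 0.523. *Ddit3* shares 68 exon bases with *Mars* on the other strand, for which the log2 fold change was 0.09 (adjusted p = 0.222).

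*Trib3* (chr2:152337422-152344032, minus strand) encodes a pseudokinase that is induced by ATF4 and CHOP and restrains them. It was measured at 10.8, 9.56 and 10.7 CPM in normal and at 10.6, 10.3 and 10.5 CPM in high glucose. All 3 high glucose values lay within the range of the normal glucose values. The log2 fold change was 0.02 ± 0.07 (SE, adjusted p = 0.871), with a 95% interval from -0.14 to 0.18. A fall of the size seen for *Chac1* lies outside this interval.

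*Chac1* (chr2:119351229-119354381, plus strand) encodes an enzyme that breaks down glutathione and is a target of the same factors. Its samples gave 3.72, 4.24 and 4.73 CPM in normal and at 2.43, 2.64 and 2.40 CPM in high glucose. Every normal glucose sample lay above every high glucose sample. The mean fell from 4.23 ± 0.506 to 2.49 ± 0.133 CPM (SD, n = 3), a difference of -0.77 ± 0.11 (SE) on the log2 scale, with an adjusted p of 0.000471. These values rest on 307 to 606 reads in a library.

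*Sesn2* (chr4:132492032-132510501, minus strand) encodes a leucine sensor that holds back mTORC1, the kinase that drives growth when amino acids are plentiful. It was measured at 74.0, 81.0 and 86.9 CPM in normal and at 67.6, 66.9 and 68.3 CPM in high glucose. The high glucose samples lay close together and below all normal glucose samples. The log2 fold change was -0.25 ± 0.06 (SE, adjusted p = 0.0112).

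**Figure D2:**
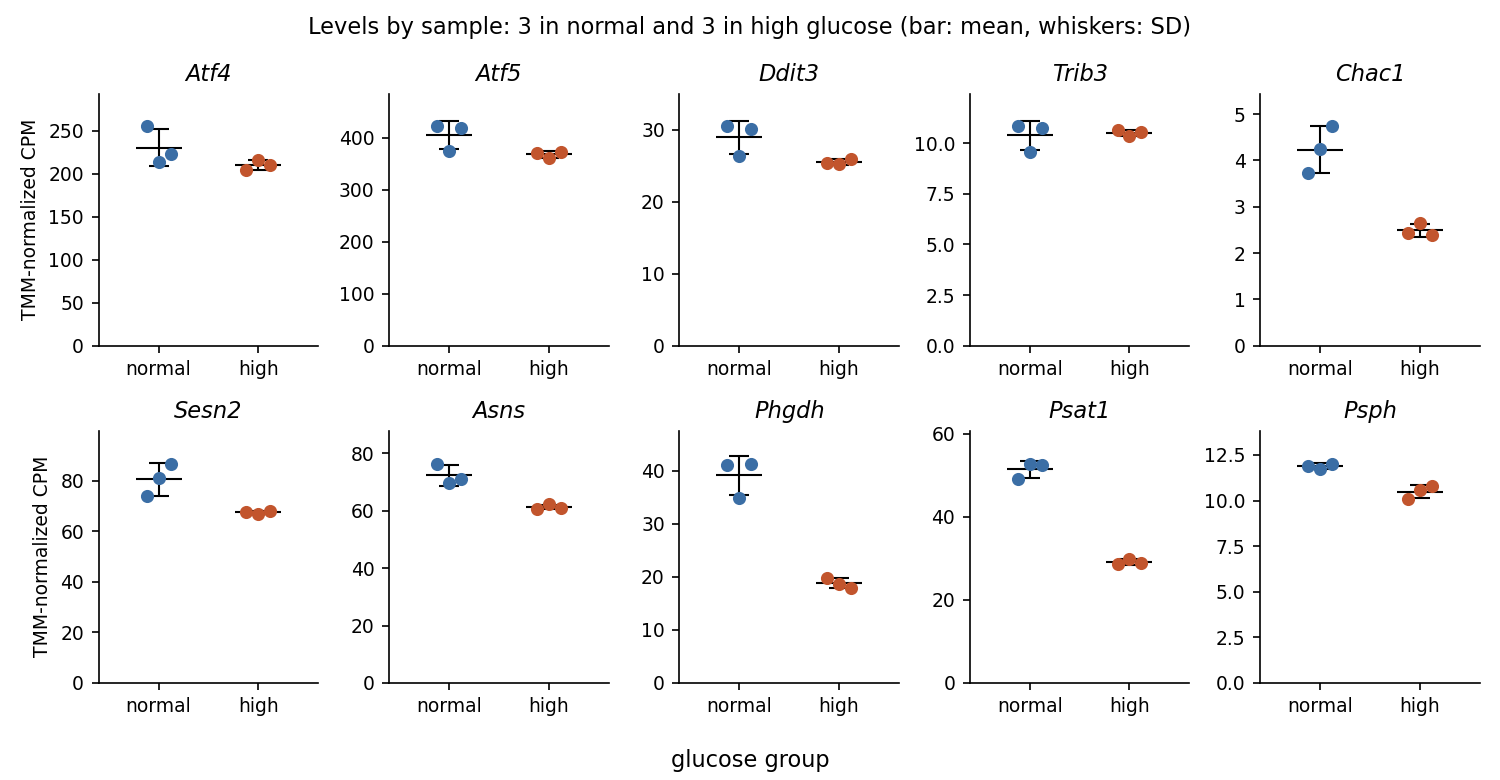
TMM-normalized CPM of each gene in each of the 3 normal (left) and 3 high (right) glucose samples, 1 panel a gene with its own vertical axis, where bars mark means and whiskers SDs. The groups of *Phgdh*, *Psat1* and *Chac1* lie far apart, at means of 39.1 against 18.8, 51.4 against 29.0 and 4.23 against 2.49 CPM, and those of *Atf4* and *Trib3* overlap.

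Within a library, the reads of *Chac1* can be set against those of *Ddit3* and *Trib3*, which takes the scaling between libraries out of the comparison. These ratios, and those of the serine route below, were chosen after the values had been seen. *Chac1* had 0.122, 0.161 and 0.157 reads per *Ddit3* read in normal and 0.0953, 0.105 and 0.0924 in high glucose. Per *Trib3* read it had 0.344, 0.444 and 0.440 in normal and 0.228, 0.255 and 0.227 in high glucose. Neither ratio overlapped between the groups. The exact permutation p was 0.1 for each, the smallest that 3 against 3 samples can give, and 0.15 after adjustment over the 6 ratios computed.

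*Asns* (chr6:7675169-7693254, minus strand) encodes asparagine synthetase, which makes asparagine from aspartate and glutamine. Its level was 76.4, 69.5 and 71.1 CPM in normal and at 60.6, 62.3 and 61.1 CPM in high glucose. Again the groups did not overlap. The mean fell from 72.3 ± 3.64 to 61.3 ± 0.845 CPM (SD, n = 3), a difference of -0.24 ± 0.05 (SE) on the log2 scale (adjusted p = 0.00694).

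ATF4 with a C/EBP partner binds a composite element written TGATGNAA, and the promoter windows of the members were searched for these letters on both strands. The windows came from RefSeq (GRCm38.p6) and ran from 250 bases before to 50 bases after a transcription start. All 10 members had at least 1 window, with 12 windows in all. *Asns*, *Chac1* and *Trib3* held a match, as did 3.97% of all 32851 windows, and matches did not overlap one another. In *Asns* it was TGATGAAA on the gene's strand at position -23 from the start. *Chac1* had TGATGCAA at position -193 and *Trib3* TGATGTAA at position 14, both on the other strand. Of the 3, *Asns* and *Chac1* fell and *Trib3* did not pass the test. The windows of these genes are shown with the match in capitals, followed by the *Phgdh* window and 1 of the 2 *Psat1* windows. *Phgdh* and *Psat1* were the members with the largest falls. The *Phgdh* window and both *Psat1* windows do not hold these letters. Both *Psat1* windows lie inside the gene span printed for *Psat1* below, away from the start of that span at 15947337 on the minus strand. Sites outside the windows or written with other letters were not searched for.
Asns promoter (chr6:7693160-7693459, minus strand): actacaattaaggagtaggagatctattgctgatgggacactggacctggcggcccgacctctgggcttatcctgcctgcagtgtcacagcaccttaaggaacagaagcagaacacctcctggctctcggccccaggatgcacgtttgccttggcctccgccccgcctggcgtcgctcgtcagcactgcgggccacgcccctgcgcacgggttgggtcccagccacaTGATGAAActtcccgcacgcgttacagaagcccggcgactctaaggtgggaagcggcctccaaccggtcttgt
Chac1 promoter (chr2:119350992-119351291, plus strand): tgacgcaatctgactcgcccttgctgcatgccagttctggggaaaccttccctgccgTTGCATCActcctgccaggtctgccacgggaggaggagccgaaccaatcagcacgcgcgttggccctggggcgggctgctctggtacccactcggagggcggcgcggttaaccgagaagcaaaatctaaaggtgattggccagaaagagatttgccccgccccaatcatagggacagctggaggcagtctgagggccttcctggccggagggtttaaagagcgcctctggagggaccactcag
Trib3 promoter (chr2:152344011-152344310, minus strand): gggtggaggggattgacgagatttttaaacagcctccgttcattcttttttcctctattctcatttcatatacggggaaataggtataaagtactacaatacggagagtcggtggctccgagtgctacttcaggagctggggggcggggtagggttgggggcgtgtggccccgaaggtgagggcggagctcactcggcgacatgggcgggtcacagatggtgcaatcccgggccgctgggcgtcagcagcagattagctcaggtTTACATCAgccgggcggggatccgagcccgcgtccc
Phgdh promoter (chr3:98339920-98340219, minus strand): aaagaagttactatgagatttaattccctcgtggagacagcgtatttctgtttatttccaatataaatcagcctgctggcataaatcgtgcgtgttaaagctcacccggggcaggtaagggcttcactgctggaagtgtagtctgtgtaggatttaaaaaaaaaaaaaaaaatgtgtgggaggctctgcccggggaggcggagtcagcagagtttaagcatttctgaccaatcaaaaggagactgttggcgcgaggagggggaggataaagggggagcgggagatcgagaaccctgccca
Psat1 promoter (chr19:15925010-15925309, minus strand): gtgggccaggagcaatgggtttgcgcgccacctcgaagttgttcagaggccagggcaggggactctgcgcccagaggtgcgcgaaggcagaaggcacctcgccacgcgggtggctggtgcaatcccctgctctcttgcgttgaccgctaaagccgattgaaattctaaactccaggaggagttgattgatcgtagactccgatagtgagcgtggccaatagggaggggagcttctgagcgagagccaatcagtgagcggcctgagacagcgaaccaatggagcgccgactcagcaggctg

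*Phgdh* (chr3:98313170-98339990, minus strand) encodes the dehydrogenase that takes phosphoglycerate out of glycolysis, the entry step of serine synthesis. Its samples gave 41.05, 34.95 and 41.36 CPM in normal and at 19.8, 18.7 and 18.0 CPM in high glucose. The lowest normal glucose sample was far above the highest high glucose sample. The mean fell from 39.1 ± 3.61 to 18.8 ± 0.925 CPM (SD, n = 3), so that *Phgdh* fell by 51.9% (log2 fold change -1.06 ± 0.07 SE, adjusted p = 3.32e-06). The annotation holds 21 genes with a stretch of at least 100 bases at 90% identity or more to *Phgdh*. Their summed reads were 1.51% to 2.08% of the sum with *Phgdh* and lay at 109, 98 and 84 in normal and 43, 46 and 47 in high glucose. The copy with the most reads, *Gm7901*, named after its values had been seen, was itself called lower (log2 fold change -1.31, adjusted p = 0.00205). Reads that the counting left out or moved between *Phgdh* and its copies were not measured.

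*Psat1* (chr19:15904678-15947337, minus strand) encodes the transaminase of the second step, which takes nitrogen from glutamate. It was measured at 49.1, 52.8 and 52.4 CPM in normal and at 28.5, 29.8 and 28.9 CPM in high glucose. Both groups were tight and lay well apart. The mean fell from 51.4 ± 2.02 to 29.0 ± 0.650 CPM (SD, n = 3), so that *Psat1* fell by 43.5% (log2 fold change -0.82 ± 0.05 SE, adjusted p = 1.73e-06).

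*Psph* (chr5:129765558-129787449, minus strand) encodes the phosphatase that releases serine in the last step. Its level was 11.88, 11.72 and 12.03 CPM in normal and at 10.1, 10.6 and 10.8 CPM in high glucose. The groups did not overlap, but the log2 fold change of -0.18 ± 0.06 (SE) had an adjusted p of 0.0562. Of its exon bases, 10.4% are shared with *Cct6a* on the other strand, a chaperonin gene at a higher level, whose log2 fold change was -0.20 (adjusted p = 0.0725).

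In the fit, the log2 fold changes of *Phgdh* (-1.06) and *Psat1* (-0.82) were larger in size than that of *Psph* (-0.18). Whether *Cct6a* reads were counted for *Psph*, which would enter the ratios to *Psph*, was not tested. Per *Psph* read, *Phgdh* had 3.45, 2.98 and 3.44 reads in normal and 1.96, 1.77 and 1.67 in high glucose. *Psat1* had 4.13, 4.50 and 4.36 reads per *Psph* read in normal and 2.82, 2.82 and 2.68 in high glucose. Neither ratio overlapped between the groups, with differences of -0.87 and -0.64 on the log2 scale (exact permutation p = 0.1 for each, 0.15 adjusted over the 6 ratios). *Phgdh* against *Psat1* gave 0.836, 0.662 and 0.79 in normal and 0.695, 0.627 and 0.622 in high glucose, and these values overlapped (exact permutation p = 0.2, adjusted p = 0.24).

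**Figure D3:**
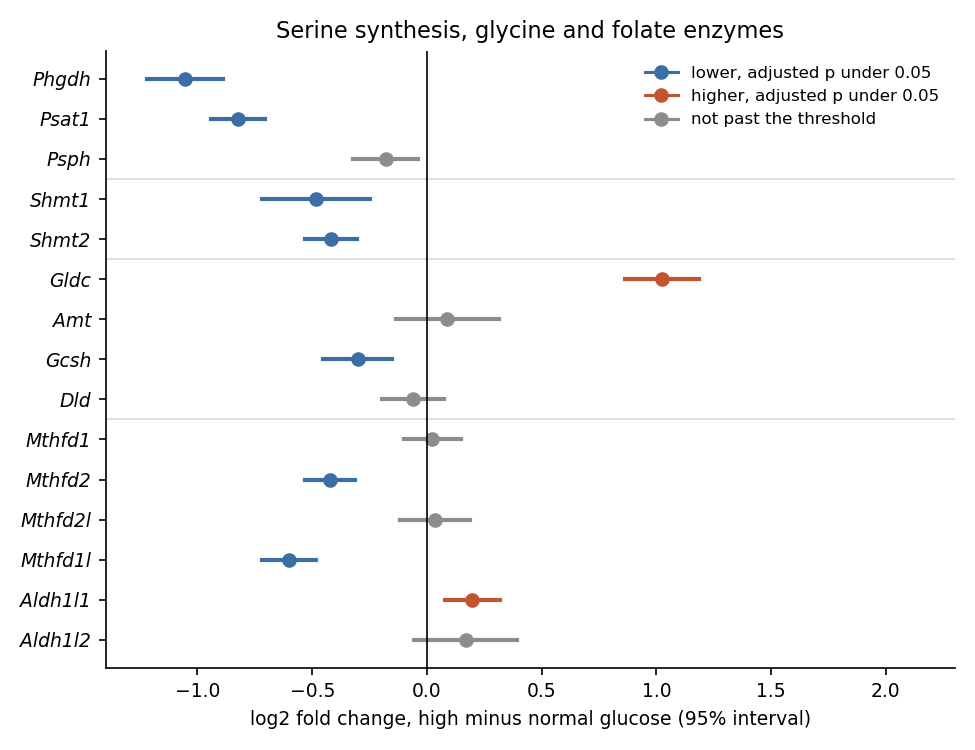
Log2 fold change (high minus normal glucose) with 95% interval for the serine synthesis enzymes, the 2 serine hydroxymethyltransferases, the glycine cleavage system and the folate enzymes, from top to bottom. Blue marks genes called lower, red genes called higher and grey genes that did not pass the threshold, with *Phgdh* at -1.06 and *Gldc* at 1.02 as the outermost points.

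Levels were compared between the genes per length of exon, as RPKM (the TMM-normalized CPM per kilobase of exon). The order was the same in both groups, from *Atf5* (203 RPKM in normal glucose, above 99.0% of tested genes) and *Atf4* (97.7 RPKM) through *Asns* (26.5), *Sesn2* (23.2), *Ddit3* (16.9), *Phgdh* (15.7), *Psat1* (12.1) and *Trib3* (4.88) to *Psph* (2.74) and *Chac1* (2.59). In normal glucose the neighbours *Ddit3* and *Phgdh* overlapped in their samples, as did *Psph* and *Chac1*, and no other neighbours did. No neighbours overlapped in high glucose, where *Ddit3* stood at 14.9 RPKM and *Phgdh* at 7.57 RPKM, with *Psat1* next at 6.83 RPKM.

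Upstream of ATF4, 11 genes encode eIF2α itself, its kinases, their regulators and the subunits that direct removal of the phosphate. Of these 1 fell, 2 rose and 8 did not pass the test, beside 14.5% lower and 16.9% higher among all tested genes. Library size scaling gave 4 lower and 1 higher, and RLE scaling, DESeq2, the likelihood ratio test and the exact test each gave 2 lower and 2 higher, as did leaving out normal glucose replicate 1 or 3 or high glucose replicate 2. *Eif2ak2*, the kinase PKR that senses double-stranded RNA, fell from 107 to 87.6 CPM (log2 fold change -0.28, adjusted p = 0.00255). *Ppp1r15b*, which targets the phosphatase to eIF2α, rose by 0.25 on the log2 scale (adjusted p = 0.00514), and *Gcn1l1*, a partner of the amino acid sensing kinase GCN2, rose by 0.37 (adjusted p = 0.00453). *Impact*, which holds GCN2 back, stood at -0.17 on the log2 scale (adjusted p = 0.058). The median log2 fold change of the list was 0.02 and kept its sign in 12 of 19 alternative settings.

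Of 22 other ATF4 targets and partners, 7 fell, 2 rose and 13 did not pass the test. For comparison, 14.5% of all tested genes were called lower and 16.9% higher. The median log2 fold change of the 22 genes was -0.05. The rises were not stable, since 0 genes were called higher under library size scaling or without normal glucose replicate 3, high glucose replicate 1 or high glucose replicate 2, and 1 without high glucose replicate 3 or under upper quartile scaling. *Adm2*, a secreted peptide of the calcitonin family, was at 5.45, 4.74 and 5.14 CPM in normal and 2.47, 2.74 and 2.29 CPM in high glucose (log2 difference -1.03, adjusted p = 3.65e-05). *Vldlr*, a lipoprotein receptor, fell by 0.96 on the log2 scale (adjusted p = 1.92e-06), and the stress hormones *Gdf15* and *Fgf21* fell by 0.84 (adjusted p = 7.71e-05) and 0.85 (adjusted p = 0.0226), *Fgf21* from a level of only 0.417 CPM. The autophagy genes *Sqstm1* and *Map1lc3b*, the most abundant of the list by their mean over both groups, had log2 fold changes of -0.05 and 0.07 and did not pass. *Cth*, which makes cysteine, *Stc2* and the amino acid carrier *Slc7a5* also fell. The rises were those of *Cebpb*, a partner of ATF4 (log2 fold change 0.33, adjusted p = 0.0125), and *Slc3a2*, the chain that carries SLC7A5 to the membrane. *Cth*, *Stc2*, *Slc7a5*, *Cebpb* and *Slc3a2* are named outside the rule for named genes, after their values had been seen.

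Downstream of serine, 17 enzymes and mitochondrial carriers of glycine, serine and folate metabolism were tested. Of these 6 fell, 2 rose and 9 did not pass, beside 14.5% lower and 16.9% higher among all tested genes. The list's median log2 fold change of -0.04 kept its sign in 17 of 19 settings. Library size scaling gave 9 lower and 1 higher. Only 1 rise was called, too, under upper quartile scaling, with the GC and length trend removed and the replicate block, and without normal glucose replicate 2, high glucose replicate 1 or high glucose replicate 3. *Shmt1* and *Shmt2*, which pass a carbon of serine to folate and leave glycine, fell by 0.48 (adjusted p = 0.00617) and 0.42 (adjusted p = 0.000163) on the log2 scale. In mitochondria, *Mthfd2* fell from 28.3 to 21.1 CPM (adjusted p = 0.000109) and *Mthfd1l* from 31.7 to 20.9 CPM (adjusted p = 1.62e-05). *Gldc*, the glycine decarboxylase that breaks glycine down, went the other way, from 9.11, 10.7 and 10.5 CPM in normal to 20.9, 19.9 and 20.8 CPM in high glucose (log2 difference 1.02, adjusted p = 3.64e-06). *Shmt2* is named outside the rule, after its value had been seen.

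Of 21 cytosolic aminoacyl-tRNA synthetases, many of them known ATF4 targets, 8 fell and 0 rose, beside 14.5% lower and 16.9% higher among all tested genes, with a median log2 fold change of -0.13. Library size scaling called 18 of them lower and moved the median to -0.24, and upper quartile scaling called 10 lower. *Cars* fell by 0.46 (adjusted p = 0.000133), *Sars*, which charges tRNA with serine, by 0.36 (adjusted p = 0.00178), *Nars* by 0.32 (adjusted p = 0.000981) and *Rars* by 0.31 (adjusted p = 0.00158) on the log2 scale. *Aars* stood at -0.08 on that scale (adjusted p = 0.233). The ATF6 and XBP1 arms of the unfolded protein response, which act beside the ATF4 arm, had 1 of 17 genes lower and 1 higher, beside the same shares over all tested genes. This count depended on the processing: library size scaling gave 8 lower and 0 higher, upper quartile scaling 4 lower, and RLE scaling, DESeq2, the likelihood ratio test and the exact test 3 lower each. Without normal glucose replicate 2 it was 5 lower and 2 higher, without high glucose replicate 2 or normal glucose replicate 3 it was 3 lower and 0 higher, without normal glucose replicate 1 it was 2 lower and 1 higher, and without high glucose replicate 1 or 3 it was 0 in both directions. The genes called in the reported fit were the chaperone *Canx* (log2 fold change -0.20, adjusted p = 0.0122) and the factor *Xbp1* (0.19, adjusted p = 0.0156). The abundant chaperones *Hsp90b1* and *Calr* had log2 fold changes of -0.21 (adjusted p = 0.0659) and 0.0026.

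**Figure D4:**
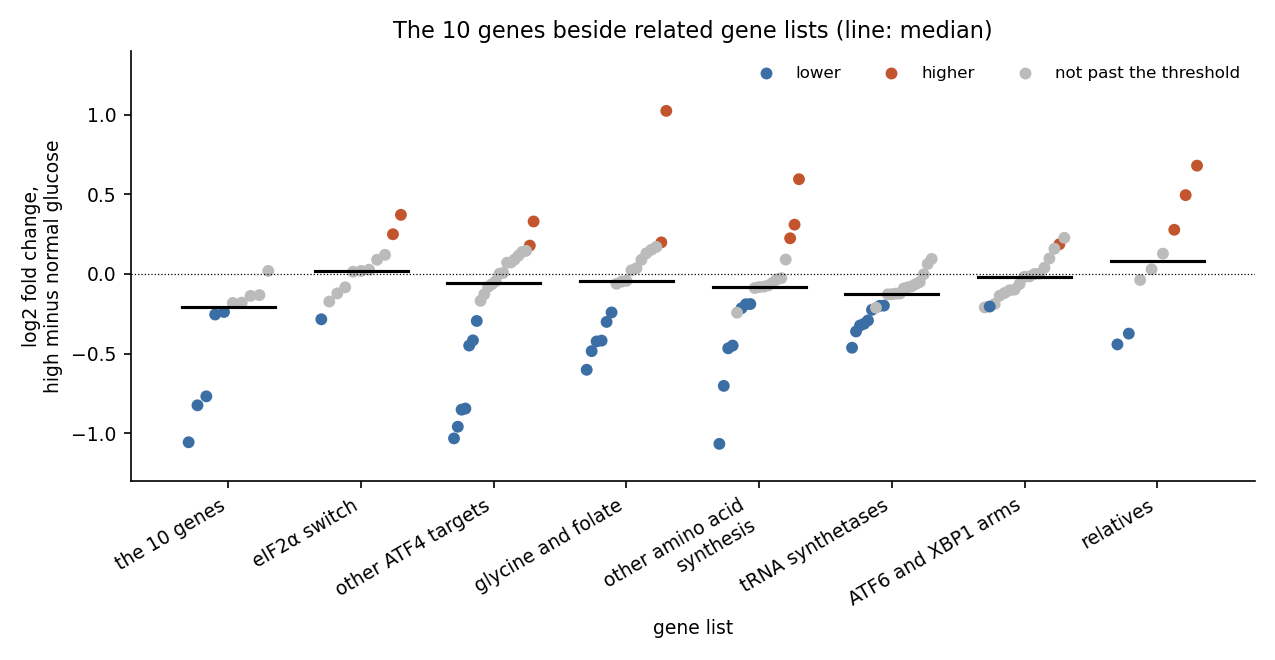
Log2 fold change (high minus normal glucose) of each tested gene in the 10 genes and 7 related lists, 1 point a gene, with the median of each list as a line. Blue and red points are genes called lower and higher, and the medians run from -0.21 for the 10 genes to 0.08 for their close relatives.

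Other gene groups moved with the glucose groups too. All 10 markers of the G2/M phase of the cell cycle fell, and their summed level was 225 to 236 CPM in normal and 116 to 119 CPM in high glucose. Of the 11 fibroblast markers, 8 rose and 3 fell. Among all tested genes, 16.9% were called higher and 14.5% lower. The summed level of 5 macrophage markers was 8.33 to 9.35 CPM in normal and 5.72 to 6.52 CPM in high glucose, with at most 16 reads of *Ptprc* and 3 of *Adgre1* in a library. That of 6 mural cell markers was 1173 to 1256 CPM in normal and 1062 to 1132 CPM in high glucose, and that of 4 keratinocyte markers stayed at or under 0.409 CPM in each library. The part of these groups in the changes of the 10 genes was not tested.

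**Figure D5:**
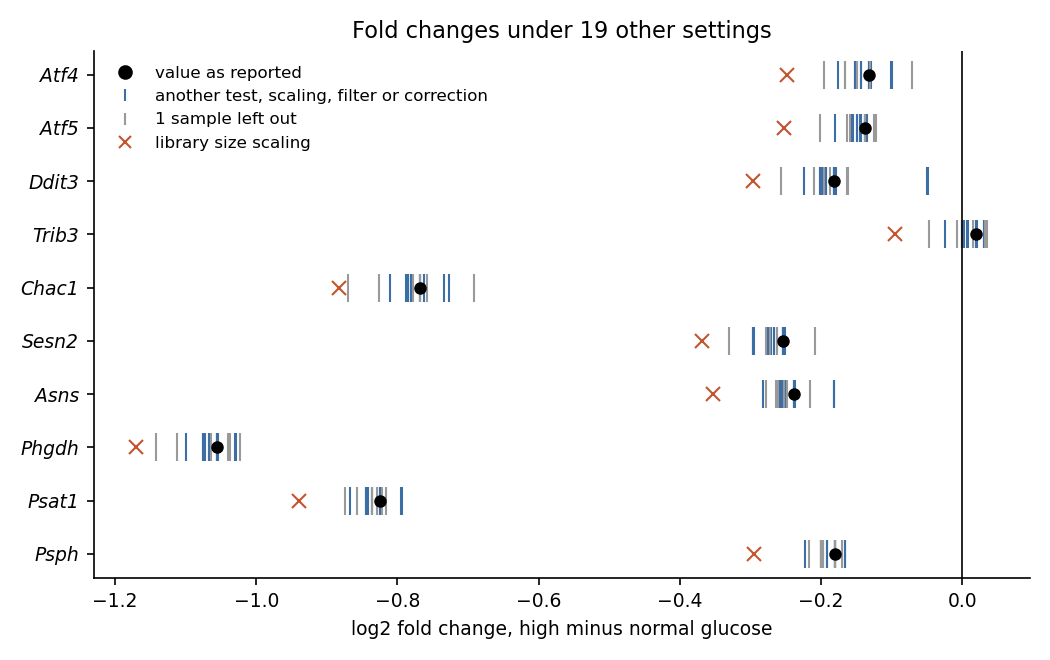
Log2 fold change (high minus normal glucose) of each of the 10 genes as reported (black point) and under 19 other settings, with grey ticks where 1 sample was left out and crosses for scaling to library size. *Phgdh* stays between -1.17 and -1.02 and *Psat1* between -0.94 and -0.79, whereas *Trib3* lies on both sides of 0.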

How the data were processed

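Counts were analysed for 6 samples, 3 in normal and 3 in high glucose. Per the labels' processing notes and the paper, the authors used Trimmomatic, HISAT2 (GRCm38) and StringTie, and they deposited raw read counts per gene without normalization; tool versions, annotation release and strand setting are not given in the sources used here. Here, counts were filtered (filterByExpr, minimum count 10, minimum total 15), scaled by TMM and tested with edgeR 4.0.16 in R 4.3.3 by its quasi-likelihood test, p-values being adjusted by Benjamini-Hochberg over 19015 genes and a threshold of 0.05. Printed CPM use TMM library sizes. A floor of 3 counts was 0.0211 to 0.0258 CPM, which covers counting error only. TMM factors were 1.03 to 1.05 in normal and 0.954 to 0.966 in high glucose. Replicates differed beyond sampling noise. Positions, exon overlaps and copies came from GENCODE M21 (GRCm38), and promoters from RefSeq. The code was tested on simulated data. The members and gene lists were chosen with earlier results of these data known. Named genes were the members, up to 4 called genes with the largest changes and the 2 most abundant genes of each list, and genes overlapping a member. *Cth* and *Gpt2* stand in 2 lists.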

Additional observations from a re-analysis of the deposited data

How the results depend on the processing

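*Phgdh*, *Psat1*, *Chac1*, *Sesn2* and *Asns* stayed lower and past the threshold in all 19 alternatives that refitted the fold changes, and 0 members were called higher in any of them. *Trib3* was called in none of them, and the other members were called in some. RLE scaling called *Ddit3* (-0.19) and *Psph* (-0.19), as did DESeq2 (-0.19 and -0.19), a filter at 1 CPM in 3 samples (-0.20 and -0.20) and halved counts (-0.20 and -0.20). Removing the GC and length trend called *Atf5* (-0.14) and *Psph* (-0.17). Upper quartile scaling called *Atf5* (-0.18), *Ddit3* (-0.22) and *Psph* (-0.22), 8 members in all. Library size scaling called *Atf4* (-0.25), *Atf5* (-0.25), *Ddit3* (-0.30) and *Psph* (-0.29), 9 members in all, and 4884 genes lower and 1819 higher. It put 72.9% of all calls lower, against 56.5% under upper quartile and 46.2% under TMM. *Trib3* changed sign under upper quartile (-0.024) and library size scaling (-0.10), without the low-count filter (-0.0011) and with halved counts (-0.00052). A floor of 0.5 on the absolute log2 fold change left 3 members, with 1372 genes lower and 1125 higher, and an adjusted p under 0.01 left 4 members, with 1671 lower and 1946 higher.

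Leaving out 1 sample gave log2 fold changes of -0.20 to -0.072 for *Atf4*, -0.20 to -0.12 for *Atf5*, -0.26 to -0.16 for *Ddit3*, -0.048 to 0.035 for *Trib3* and -0.22 to -0.17 for *Psph*. It gave 5 to 8 members called lower, 2048 to 3065 genes lower and 1988 to 3149 higher. With the replicate number as a block, 5 members were called lower (2418 genes lower and 2909 higher in all), and no member changed its call. The numbers were not taken as pairing the samples, because deviations of samples with the same number correlated at -0.09, 0.04 and 0.06, and only 1 of 3 numbers correlated best with itself. With 3 samples a group, single-gene permutation tests cannot go below 0.1.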

Other observations

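Among close relatives of the members, *Trib1*, a pseudokinase of the same family as *Trib3*, rose from 17.9, 19.4 and 19.4 CPM in normal to 29.7, 30.3 and 30.7 CPM in high glucose (log2 difference 0.68, edgeR adjusted p = 8.32e-06), whereas *Trib2* fell by 0.37 on the log2 scale (adjusted p = 0.000341). Among the sestrins, *Sesn1*, a p53 target, rose from 12.9, 14.1 and 13.8 to 18.9, 19.95 and 18.6 CPM (log2 fold change 0.49, adjusted p = 0.000186), *Sesn2* fell, and *Sesn3* had a log2 fold change of -0.04 and did not pass the test. *Chac2*, the second glutathione-degrading enzyme of the *Chac1* family, fell by 0.44 (adjusted p = 0.00785). Of the 8 relatives tested, 2 fell and 3 rose, beside 14.5% lower and 16.9% higher among all tested genes. The median log2 fold change of the relatives, 0.08, kept its sign in 18 of 19 settings.

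Among 19 enzymes that make other amino acids, 7 fell, 3 rose and 9 did not pass the test. Over all tested genes, 14.5% were called lower and 16.9% higher. The median log2 fold change of the 19 enzymes was -0.08. *Ass1*, which joins citrulline and aspartate on the way to arginine, was at 439, 419 and 445 CPM in normal and 206, 204 and 212 CPM in high glucose (log2 difference -1.07, adjusted p = 2.22e-07). *Bcat1*, a transaminase of branched-chain amino acids, fell by 0.70 (adjusted p = 6.96e-06), and *Got1*, the cytosolic aspartate transaminase, by 0.47 (adjusted p = 0.000476). *Glul*, which makes glutamine, rose from 185 to 279.7 CPM (log2 fold change 0.59, adjusted p = 2.51e-05). The other rises were those of the abundant *Oat*, from 330 to 385 CPM (log2 fold change 0.22, adjusted p = 0.00493), and of *Pycr1* (0.31, adjusted p = 0.00118). *Pycr1* is named outside the rule, after its value had been seen.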
